A study of Mus musculus with 7 samples.

Results

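The 5 mouse genes of the AP-2 transcription factor family, *Tfap2a* to *Tfap2e*, were followed by gene symbol in a table of read counts from bulk RNA-seq of embryonic retina, where they are 5 of 48440 listed genes. They were singled out because *Tfap2e* rose from near zero after loss of *Ptbp1*, a repressor of neuronal exon inclusion, so the contrast of KO with Het chose them. Their values in that contrast are therefore given as a description, with no p-values, and nothing is read from their calls. Each of the 5 is among the 20019 genes that passed the filter on low counts, but *Tfap2e* passed it only through the KO libraries and so had to differ.

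The study asked whether *Ptbp1* in retinal progenitors restrains neuronal gene expression and cell fate. Each of the 7 libraries was made from pooled E16 retinas, 36 in all, and every group carried Chx10-Cre, a Cre transgene driven by the promoter of a retinal progenitor gene. The WT group (1 library, 6 retinas) carried the transgene with intact *Ptbp1*, the Het group (3 libraries of 5, 5 and 6 retinas) was Chx10-Cre;Ptbp1lox/WT, and the KO group (3 libraries of 4, 4 and 6 retinas) was Chx10-Cre;Ptbp1lox/lox. Recombination in this design is limited to progenitors that express Chx10 and their descendants, and the whole retina was lysed. In bulk tissue, more cells of a type and more RNA per cell cannot be told apart.

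AP-2 proteins bind GC-rich palindromes as dimers and share a highly conserved DNA-binding and dimerization region. In the developing retina *Tfap2a* and *Tfap2b* act downstream of Foxn4 and Ptf1a in the differentiation of amacrine and horizontal cells, the inhibitory interneurons, and *Tfap2c* marks a subset of amacrine cells. *Tfap2d* is known for its part in the development of midbrain neurons, and *Tfap2e* for neurons of the olfactory bulb and the vomeronasal organ. The same family also acts in surface ectoderm, lens and neural crest.

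The family is alike enough that reads could in principle fall on the wrong paralog, so the best conserved stretch of the coding sequences is shown. It is the aligned window of 60 bases with the highest mean pairwise identity, 78.3%, read from the longest annotated coding sequence of each gene (GENCODE M21, GRCm38), 5′ to 3′. Capitals mark bases that differ from *Tfap2e*. The window starts at coding base 811 of *Tfap2a*, 781 of *Tfap2b*, 952 of *Tfap2c*, 724 of *Tfap2d* and 745 of *Tfap2e*.
Tfap2a: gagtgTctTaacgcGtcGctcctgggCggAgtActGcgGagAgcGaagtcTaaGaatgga
Tfap2b: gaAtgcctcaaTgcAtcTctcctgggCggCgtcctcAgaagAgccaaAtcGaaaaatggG
Tfap2c: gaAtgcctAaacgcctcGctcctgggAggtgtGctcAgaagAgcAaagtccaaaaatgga
Tfap2d: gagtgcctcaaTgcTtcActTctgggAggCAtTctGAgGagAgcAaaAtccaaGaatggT
Tfap2e: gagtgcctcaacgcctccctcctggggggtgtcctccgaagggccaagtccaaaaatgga
Even here *Tfap2c* differed from *Tfap2e* at 8 bases, *Tfap2b* at 11, *Tfap2a* at 13 and *Tfap2d* at 16. Over the whole coding sequences, identity ranged from 52.5% between *Tfap2c* and *Tfap2d* to 68.0% between *Tfap2a* and *Tfap2b*, and *Tfap2e* was 63.0% identical to *Tfap2b*. The longest identical run between any pair was 29 bases, and 0 stretches of 50 bases were shared by any pair, so a read of that length inside the coding sequence with no mismatch belongs to 1 member alone.

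The *Tfap2e* promoter is shown because this gene had the largest difference of the family. The 300 bases from RefSeq lie at chr4:126736220-126736519 (GRCm38.p6, minus strand, 250 bases before and 50 after the annotated start), and capitals mark matches to the E-box CAGCTG, a sequence bound by basic helix-loop-helix factors.
Tfap2e: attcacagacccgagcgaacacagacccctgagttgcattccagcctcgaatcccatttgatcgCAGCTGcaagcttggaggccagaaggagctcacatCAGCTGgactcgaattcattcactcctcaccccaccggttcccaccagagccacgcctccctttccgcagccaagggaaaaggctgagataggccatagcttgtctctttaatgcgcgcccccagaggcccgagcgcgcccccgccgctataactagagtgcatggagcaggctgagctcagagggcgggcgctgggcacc
The 2 E-boxes begin at bases -186 and -151 from the start. Promoters of 4 members, 7 in all, were matched in the RefSeq table. On both strands of these windows, the AP-2 palindrome GCCNNNGGC and the Crx and Otx2 motif TAATCC had no match, and CAGCTG matched only in *Tfap2e*. Among 32544 promoters of this length, GCCNNNGGC was held by 16.7%, TAATCC by 7.06% and CAGCTG by 16.4%. A match is a description of the letters, not of binding.

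The libraries held 120593979 to 171117305 counts. Values are in CPM, a gene's count per 1000000 counts of its library, with library totals scaled by TMM factors. *Ptbp1*, the targeted gene, checked the labels: it was at 381 CPM in WT, at 210, 219 and 234 in Het and at 27.9, 6.04 and 46.9 in KO, with KO on average at 12.2% of Het. One Het library, Het1, stood apart by transcripts of tissues around the retina: it was highest for 9 of 10 markers of periocular mesenchyme, 7 of 8 of skeletal muscle and 9 of 12 of surface ectoderm. KO3 had the next highest surface ectoderm sum. The 12 retinal progenitor markers were each above 1 CPM in every library. Nothing in the labels or methods says whether the pools of 1 genotype came from separate litters, so p-values measure the spread between these libraries.

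*Tfap2e* (ENSMUSG00000042477.7, chromosome 4, 126716006 to 126736240, minus strand, GRCm38) was near the limit of detection without loss of *Ptbp1*. It had 3 counts in WT, 9, 6 and 1 in the Het libraries, and 122, 48 and 41 in the KO libraries. In CPM this was 0.0202 in WT, 0.0530, 0.0504 and 0.00659 in Het and 0.921, 0.365 and 0.308 in KO. KO1 was the highest by far, and the lowest KO library was still 5.81-fold above the highest Het library. The means were 0.0366 ± 0.0261 CPM in Het and 0.531 ± 0.339 in KO (SD, n = 3 each), with a fitted log2 fold change of 3.83 (SE 0.73). This was above the log2 fold change of 99.9% of the tested genes. Over the pooled counts, 211 in KO against 16 in Het gave a ratio of 14.6. Against the single WT library, with 3 counts, the ratio was 26.3. These ratios are a description, since the gene was chosen for this rise and its counts varied widely between the KO libraries. Even in KO, *Tfap2e* stayed below 1 CPM in every library.

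*Tfap2b* (ENSMUSG00000025927.13, chromosome 1, 19208914 to 19238576, plus strand) was the most abundant member. It was at 182 CPM in WT, at 214, 199 and 189 in Het and at 314, 285 and 275 in KO. Every KO library lay above every Het library, and WT lay below them. The mean went from 200.5 ± 12.8 CPM in Het to 291 ± 19.8 in KO, a log2 fold change of 0.54 (SE 0.065).

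*Tfap2a* (ENSMUSG00000021359.15, chromosome 13, 40715302 to 40738376, minus strand), which partners *Tfap2b* in amacrine and horizontal cell differentiation, had the same direction. It was at 49.8 CPM in WT, at 57.2, 51.9 and 47.2 in Het and at 80.3, 70.5 and 64.5 in KO. WT lay inside the Het range, and the KO libraries were all higher. The mean went from 52.1 ± 4.97 CPM to 71.8 ± 7.99, a log2 fold change of 0.46 (SE 0.097).

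*Tfap2c* (ENSMUSG00000028640.11, chromosome 2, 172549593 to 172558622, plus strand), the amacrine subset gene, was less abundant. It was at 14.1 CPM in WT, at 14.9, 14.5 and 12.7 in Het and at 27.2, 20.0 and 22.9 in KO. WT again lay inside the Het range, and no KO library overlapped Het. The mean went from 14.02 ± 1.199 CPM to 23.4 ± 3.63, a log2 fold change of 0.74 (SE 0.12).

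*Tfap2d* (ENSMUSG00000042596.7, chromosome 1, 19103022 to 19166346, plus strand) was the member with the opposite direction. It was at 27.5 CPM in WT, at 23.1, 24.4 and 23.8 in Het and at 19.2, 19.3 and 18.8 in KO. The 3 KO libraries lay within a narrow range below Het, and WT was the highest of the 7. The mean went from 23.7 ± 0.664 CPM in Het to 19.1 ± 0.274 in KO, a log2 fold change of -0.32 (SE 0.041).

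**Figure D1:**
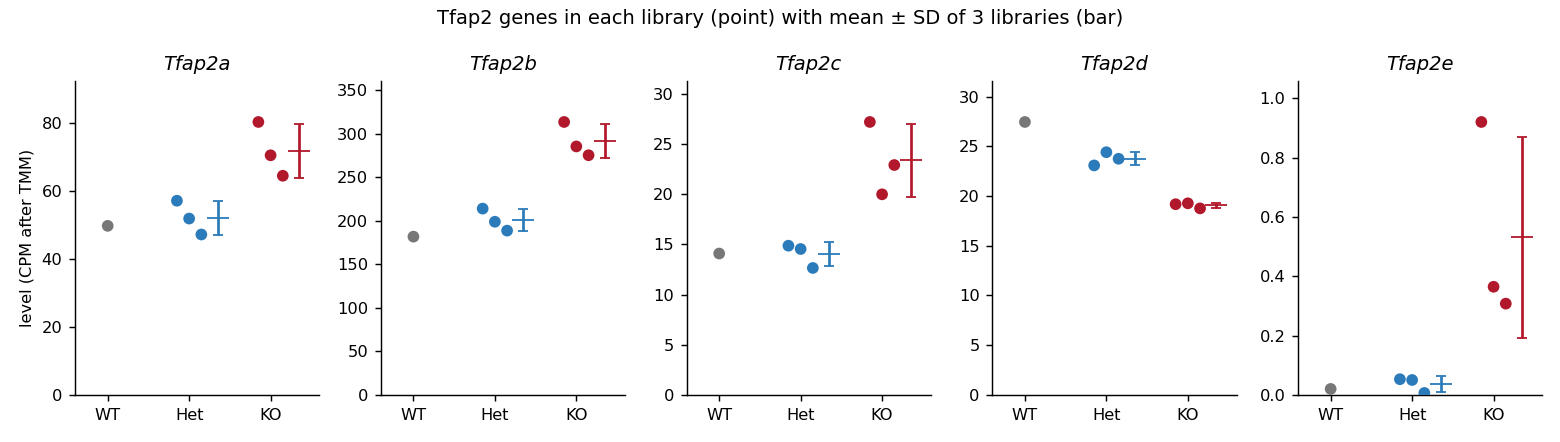
CPM (linear axis from 0, a separate scale for each gene) of the Tfap2 genes in the 1 WT, 3 Het and 3 KO libraries, with a point for each library and a bar for the mean ± SD of 3 libraries. The KO libraries lie above Het for Tfap2a, Tfap2b, Tfap2c and Tfap2e and below Het for Tfap2d, and Tfap2e is under 1 CPM throughout.

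Each of the 5 genes was past the limits used for calls (Benjamini-Hochberg adjusted p of 0.05 and a fold of 1.2) in the fit over all genes, and none had overlapping Het and KO libraries. Over all 20019 tested genes, 4.01% were called higher and 3.21% lower in KO, 7.22% in either direction, and KO lay wholly outside the Het range for 36.3% (18.6% above, 17.7% below). These shares bear on no member, since the genes were chosen from this contrast. With 1 library left out, *Tfap2a* was past the limits in 2 of 6 fits (not without Het2, Het3, KO1 or KO2), *Tfap2e* in 3 (not without Het2, Het3 or KO2), *Tfap2c* in 4 (not without Het2 or Het3), *Tfap2d* in 5 (not without Het2) and *Tfap2b* in 6. The differences placed *Tfap2a* above 89.0% of tested genes, *Tfap2b* above 90.9%, *Tfap2c* above 94.0% and *Tfap2d* above 15.2%. KO1 was the highest library for *Tfap2a*, *Tfap2b*, *Tfap2c* and *Tfap2e*. When each Het or KO library was left out in turn, the log2 fold change stayed between 0.37 and 0.54 for *Tfap2a*, 0.48 and 0.59 for *Tfap2b*, 0.61 and 0.84 for *Tfap2c*, -0.34 and -0.30 for *Tfap2d*, and 3.18 and 4.27 for *Tfap2e*. Without both Het1 and KO3, a choice made after seeing the data, *Tfap2a* was at 0.61 and *Tfap2e* at 4.57.

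**Figure D2:**
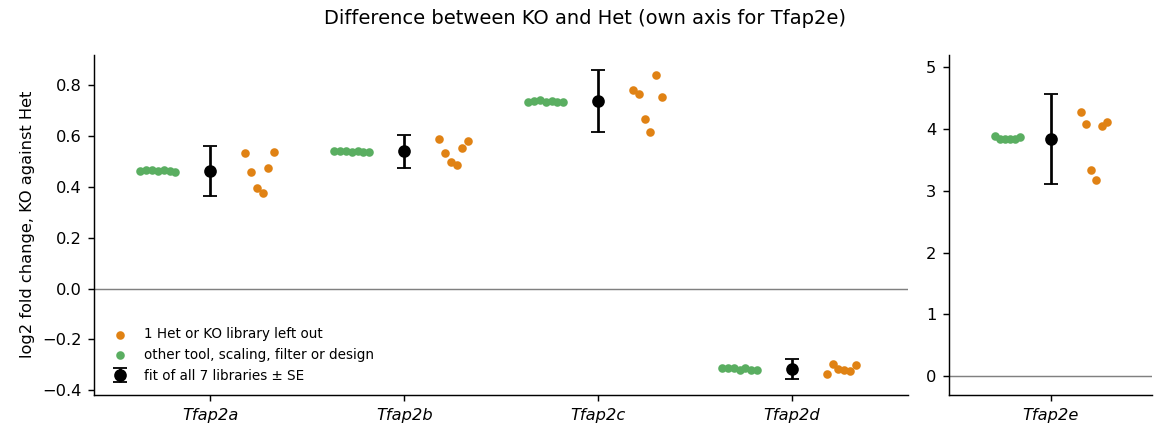
Fitted log2 fold change of each Tfap2 gene, KO against Het, as a black point with its standard error, with green points for another tool, scaling, filter or design and orange points for fits that each leave out 1 library, and a separate axis for Tfap2e. Tfap2e lies at 3.83, Tfap2a, Tfap2b and Tfap2c between 0.46 and 0.74, and Tfap2d at -0.32.

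Division by the length of the merged exons put the members on 1 scale, CPM per kilobase. The exon lengths were 4903 bases for *Tfap2a*, 6338 for *Tfap2b*, 3679 for *Tfap2c*, 1954 for *Tfap2d* and 2085 for *Tfap2e*. In Het, *Tfap2b* led at 31.6 ± 2.01 CPM per kilobase, followed by *Tfap2d* at 12.2 ± 0.340, *Tfap2a* at 10.6 ± 1.01, *Tfap2c* at 3.81 ± 0.326 and *Tfap2e* at 0.0176 ± 0.0125 (SD, n = 3). *Tfap2d* and *Tfap2a* were neighbours in this order: *Tfap2d* ranged from 11.8 to 12.5 and *Tfap2a* from 9.63 to 11.7. These ranges almost meet but do not overlap, and the *Tfap2a* to *Tfap2d* ratio was 0.723 to 0.987 in the WT and Het libraries. In KO the order of these neighbours was exchanged, with *Tfap2a* at 14.6 ± 1.63 and *Tfap2d* at 9.76 ± 0.140 CPM per kilobase. *Tfap2b* was at 46.0 ± 3.12 in KO, *Tfap2c* at 6.35 ± 0.987 and *Tfap2e* at 0.255 ± 0.162. The exchange depended on the length used: with the longest transcript, *Tfap2a* was already above *Tfap2d* in Het, at 14.9 against 13.5 CPM per kilobase.

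The summed family level was 56.7 CPM per kilobase in WT, 61.3, 58.4 and 55.0 in Het and 83.5, 74.9 and 72.6 in KO. The KO sums lay above all the others. *Tfap2b* made up 54.3 ± 0.706% of the sum in Het and 59.8 ± 0.460% in KO. *Tfap2d* made up 20.9 ± 1.47% in Het and 12.7 ± 0.834% in KO. *Tfap2e*, for all its fold change, was 0.0295 ± 0.0206% of the family in Het and 0.322 ± 0.180% in KO, so it added little to the family's transcripts.

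**Figure D3:**
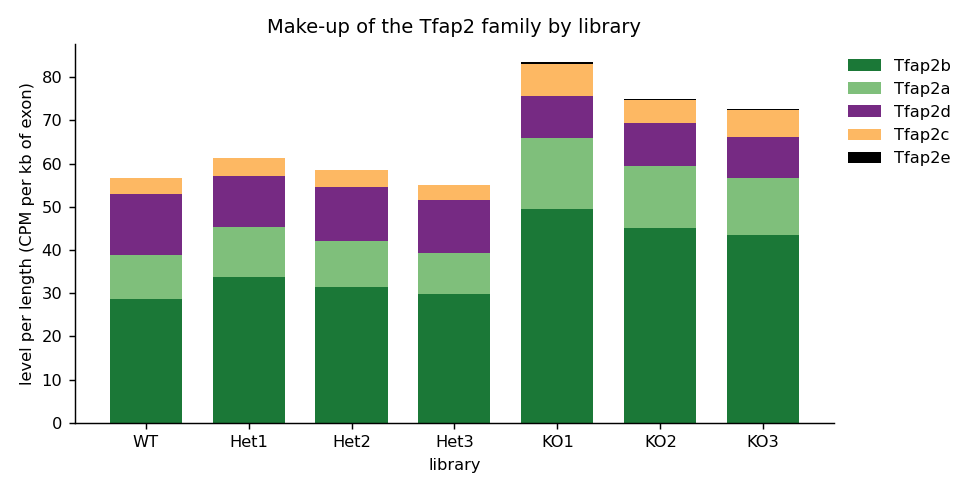
Level of each Tfap2 gene in CPM per kilobase of merged exons, stacked for each of the 7 libraries. The stack is 55.0 to 61.3 in WT and Het and 72.6 to 83.5 in KO, Tfap2b is the largest layer, the Tfap2d layer is thinner in KO, and Tfap2e shows only as a thin line in KO.

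Ratios within a library do not depend on its depth. The *Tfap2b* to *Tfap2a* ratio per length was 2.83 to 3.09 in the WT and Het libraries and 3.02 to 3.30 in KO, ranges that overlap. The *Tfap2a* to *Tfap2c* ratio was 2.65 to 2.88 in WT and Het and 2.112 to 2.647 in KO, ranges that almost meet but do not overlap. The ratios to *Tfap2d* separated the groups more widely. *Tfap2b* to *Tfap2d* was 2.04 to 2.86 in WT and Het and 4.53 to 5.04 in KO, and *Tfap2c* to *Tfap2d* was 0.273 to 0.342 and 0.551 to 0.753. Thus *Tfap2a* and *Tfap2b* kept overlapping proportions, while *Tfap2d* moved apart from the other abundant members, which is a restatement of the values that chose the family.

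Of the 2 nearest tested genes on each side of each member, none was called other than *Tfap2d* and *Tfap2b* themselves. Over all tested genes 7.22% were called, so the lack of calls among so few neighbours is no result about these loci. *Tfap2d* and *Tfap2b* are neighbours on chromosome 1, with start sites 105.9 kb apart, and moved in opposite directions. *Mcm3*, a DNA replication gene beyond *Tfap2b*, had a log2 fold change of 0.06 (adjusted p = 0.509, edgeR), and *Pkhd1*, next to it, of -0.0028 (adjusted p = 0.998). Near *Tfap2e*, *Ncdn*, which encodes neurochondrin, was at 0.06 (adjusted p = 0.553), and the proteasome subunit gene *Psmb2* was at -0.09 (adjusted p = 0.189). *Gcnt2* near *Tfap2a* was at -0.22 (adjusted p = 0.300), and near *Tfap2c* *Bmp7*, a secreted signal, was at -0.40 (adjusted p = 0.322) and *Rae1*, an mRNA export factor, at -0.06 (adjusted p = 0.205). The remaining nearest genes, *Gm9979*, *5033403F01Rik*, *Gm14303*, *Fam209*, *RP24-571A14.6*, *Gm15825*, *Gm12933* and *AU040320*, had adjusted p from 0.300 to 0.995.

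Some transcripts overlap the members, and whether the counting used strand is not given in the sources used here. The antisense gene *Gm26688* within *Tfap2a* had 151 to 200 counts in Het and 184 to 217 in KO, against 6183 to 10646 for *Tfap2a*, with a log2 fold change of 0.38 (adjusted p = 0.118, edgeR). The pseudogene *Gm10075* within *Tfap2d* had a log2 fold change of 0.46 (adjusted p = 0.243), opposite in sign to *Tfap2d*. No annotated gene overlapped *Tfap2e*.

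Genes with the profile most like each member were those with the smallest root mean square difference of centred log2(CPM + 0.1) over the 7 libraries. For *Tfap2e* they were *Rd3l* (difference 0.200), *C1ql2* (0.253), the photoreceptor calcium sensor *Rcvrn* (0.271), the matrix glycoprotein gene *Tnc* (0.279) and the myelin glycoprotein gene *Omg* (0.283). *Rcvrn* was the one at a level like *Tfap2e*, with 0.0543 ± 0.0364 CPM in Het and 0.631 ± 0.328 in KO, while *Rd3l* went from 2.68 ± 0.558 to 10.6 ± 3.07. KO1 was the highest library for each of these 5 genes, which the choice by likeness to *Tfap2e* favours and which is no separate result. For *Tfap2a* the nearest were *Lrrn3*, *Ppp1r13b* and *Pak6* (0.0377 to 0.0420), for *Tfap2b* *Gm13889*, *Syndig1* and *Gpr176* (0.0360 to 0.0399), and for *Tfap2c* the glutamate receptor gene *Grm5*, *Gm26884* and *Gm17634* (0.0674 to 0.0730). For *Tfap2d* they were the DNA repair and checkpoint genes *Xrcc5* and *Chek2* and the hyaluronidase gene *Hyal2* (0.0303 to 0.0397). These names depend on the setting: with log2(CPM + 1), 0 of the 5 nearest genes of *Tfap2e* were shared.

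**Figure D4:**
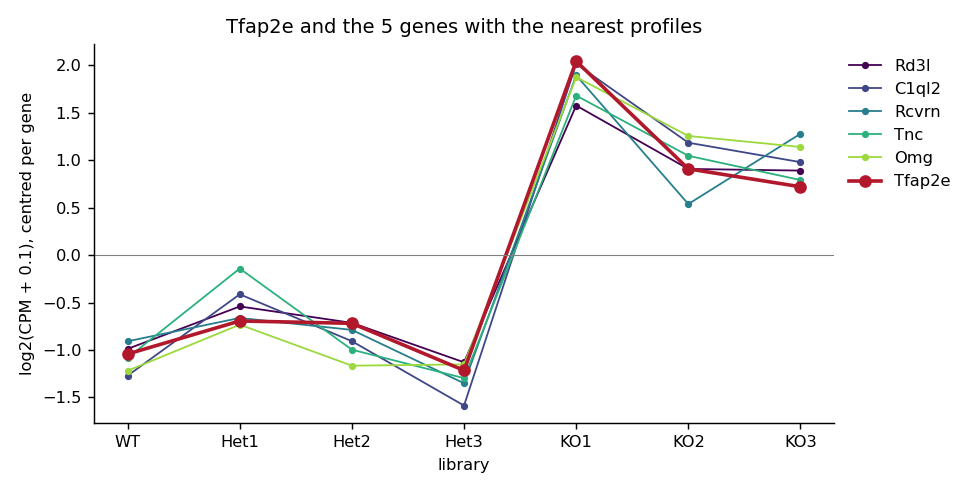
Centred log2(CPM + 0.1) in each of the 7 libraries for Tfap2e and the 5 genes nearest to it, with 1 line per gene drawn only to follow a gene across libraries. Tfap2e and each of the 5 are highest in KO1, which the choice by likeness to Tfap2e favours.

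The genes that act upstream of *Tfap2a* and *Tfap2b* in this lineage gave 1 call. Of the 8 in the list, 1 was called higher in KO and 0 lower (12.5%, against 7.22% of all tested genes), with a median log2 fold change of 0.07 against -0.0047 over all genes. The called gene was *Neurod1*, a basic helix-loop-helix factor of amacrine cells and photoreceptors, at 163 ± 3.37 CPM in Het and 203 ± 5.53 in KO (log2 fold change 0.32, SE 0.033, adjusted p = 0.00558, edgeR). *Ptf1a*, which commits precursors to the amacrine and horizontal fates, had a log2 fold change of 0.23 (adjusted p = 0.0564), and *Foxn4*, which acts before it, of -0.05. The abundant eye field genes *Pax6* and *Six3* were at -0.05 and -0.11, and *Rorb* and *Neurod4* at 0.08 and 0.06, and none of these was called.

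The amacrine list, the longest of the 5 pathway lists, had the most calls. Of 22, 9 were called higher and 2 lower in KO (50%, against 7.22% of all tested genes). The median log2 fold change was 0.44, against -0.0047 over all genes. The share was not particular to amacrine genes: of 12 progenitor markers, 4 were called higher and 2 lower (50%). *Chat*, which makes acetylcholine in starburst amacrine cells, went from 0.0538 ± 0.0163 to 0.322 ± 0.0522 CPM (log2 fold change 2.55, SE 0.32, adjusted p = 0.00831). Its level was 0.040 CPM in WT and 0.047, 0.042 and 0.072 in Het. As with *Tfap2e*, only the KO libraries carried *Chat* past the filter on low counts, so it had to differ. *Chat* is among the 9 called higher, but nothing is read from its call. *Slc18a3*, the vesicular acetylcholine transporter, had a log2 fold change of 1.48 (SE 0.24, adjusted p = 0.0162). The GABA synthesis gene *Gad1* (1.45, adjusted p = 0.00323) and the homeobox gene *Lhx9* (1.35, adjusted p = 0.00698) were also called. *Isl1*, a factor of starburst amacrine cells that ganglion and bipolar cells also express, fell from 121 ± 3.88 to 75.8 ± 4.11 CPM (log2 fold change -0.68, SE 0.047, adjusted p = 0.00209). *Th*, of dopaminergic amacrine cells, was called lower at -0.69 (adjusted p = 0.0219). The most abundant genes of the list, *Ebf3* at -0.30 (adjusted p = 0.0503), *Sox2* at -0.07 and the calcium buffer *Calb2* at 0.38 (adjusted p = 0.15), were not called. The summed list was 1070 to 1102 CPM in Het and 1126 to 1263 in KO, but without the homeobox gene *Meis2* it was 999 to 1024 and 1009 to 1108, ranges that overlap. The count of 11 fell to 5 without Het2 and to 6 without Het3, where the count over all genes fell from 1445 to 386 and 496.

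The share of horizontal cell genes called was near that of all tested genes. Of 12, 1 was called higher and 0 lower (8.33%, against 7.22%), with a median log2 fold change of -0.04. The called gene was *Calb1*, a calcium buffer of horizontal cells and some amacrine cells, at 2.92 ± 0.392 CPM in Het and 4.39 ± 0.498 in KO (log2 fold change 0.59, SE 0.14, adjusted p = 0.0423). That call was lost without Het2, Het3, KO1 or KO2, and DESeq2 called 3 of the 12. *Prox1*, *Onecut1* and *Lhx1*, factors of horizontal cells, were at 0.12, -0.17 and 0.20 and were not called. The more abundant *Nefm*, *Sema6a* and *Onecut2* were at -0.12, 0.04 and -0.19 and were not called either. The list sum was 823 to 847 CPM in Het and 762.4 to 821 in KO. Which cells carried each *Tfap2* transcript was not measured in these whole retinas.

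Among partners and targets of AP-2 factors, *Igfbp5* and *Erbb2* were called, both lower in KO. None of 12 genes for cofactors and regulators of AP-2 was called by edgeR or DESeq2, where edgeR called 7.22% of all tested genes. Of the 12, 3 had an unadjusted p under 0.05 in edgeR, and the median log2 fold change was -0.02. The abundant *Npm1*, *Dek* and *Ep300* were between -0.17 and 0.07. Of 10 tested genes known as AP-2 targets in other tissues, 0 were called higher and 2 lower (20.0%, against 7.22% of all tested genes). Their median log2 fold change was -0.57, against -0.0047 over all genes. *Igfbp5*, a binding protein of insulin-like growth factors, fell from 327 ± 74.8 to 149 ± 31.3 CPM (log2 fold change -1.14, SE 0.20, adjusted p = 0.0212), and its highest library was Het1. The receptor kinase gene *Erbb2* fell from 46.6 ± 0.870 to 38.1 ± 1.10 CPM (log2 fold change -0.29, SE 0.032, adjusted p = 0.00676). The abundant *Kit* and *Cdkn1a* were at 0.07 and 0.42 and were not called by edgeR, while DESeq2 called *Cdkn1a* higher. Het1 was the highest library for 8 of the 11 detected genes of this list. The *Igfbp5* call was lost without Het2, Het3 or KO2, which left 1 called gene.

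**Figure D5:**
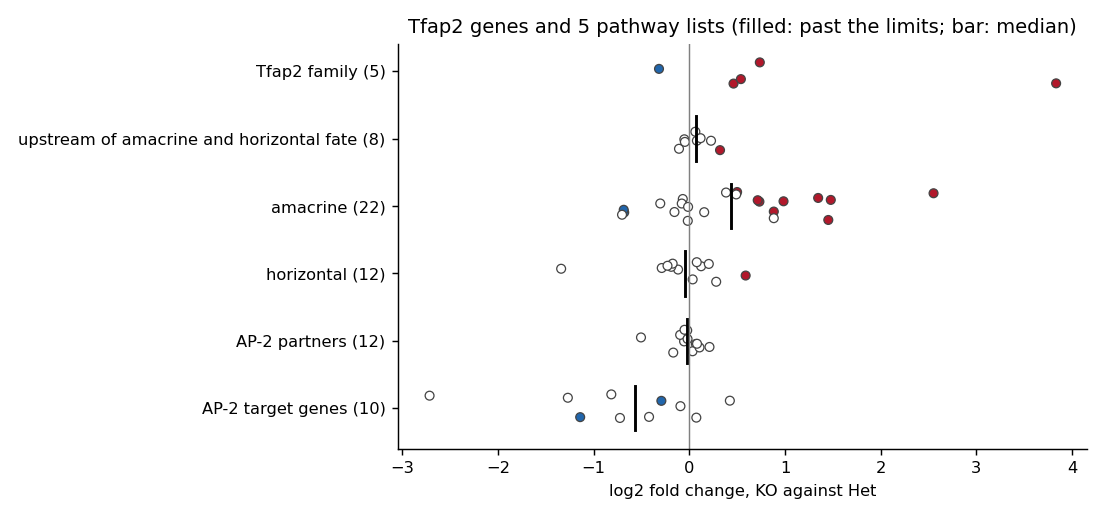
Log2 fold change, KO against Het, of the 5 Tfap2 genes and of each tested gene in 5 lists (number tested in brackets), with red points for genes past the limits and higher in KO, blue for lower, open points for the others and a bar at the median of each of the 5 lists. The amacrine list has 11 filled points of 22, the horizontal list 1 of 12 and the AP-2 partner list none.

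Because AP-2 factors are also made outside the retina, surface ectoderm markers were set beside the members. Their sum was 14.4 CPM in WT, 287, 15.8 and 17.0 in Het and 16.8, 19.8 and 85.8 in KO. The keratin gene *Krt5* had 18031 counts in Het1, 12 and 30 in the other Het libraries, 0 in KO1, 170 in KO2 and 3255 in KO3. *Tfap2e* had 122 counts in KO1 and 9 counts in Het1. In KO1, *Krt5* and *Krt14* had 0 counts, and the other markers were mixed. *Trp63*, *Dsp*, *Krt8* and *Epcam* were also lowest in KO1, at 0.0226, 0.755, 0.717 and 5.06 CPM. *Krt15*, *Grhl3*, *Perp*, *Cldn4* and *Grhl2* were not lowest there. *Krt15* had 504 counts in KO1, 282 and 372 in Het2 and Het3 and 17185 in Het1. *Grhl3* was highest in KO1, at 5.74 CPM. The part of surface ectoderm in the *Tfap2e* values was not tested. *Tfap2a*, *Tfap2b*, *Tfap2c* and *Tfap2e* were each highest in Het1 among the Het libraries and in KO1 among the KO libraries. Lens markers summed to 38.3 to 101 CPM in Het and 5.22 to 57.4 in KO. Of 10, 2 were called lower (20%, against 3.21% of all tested genes). Photoreceptor markers were higher in KO, 963 to 1122 CPM against 745 to 845 in Het. Of 18, 11 were called higher (61.1%, against 4.01% of all tested genes). The part of photoreceptors in the *Tfap2e* difference was not tested.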

How the data were processed

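Bulk RNA-seq counts of 7 libraries of pooled E16 mouse retinas (1 WT, 3 Het, 3 KO) were used. The authors aligned reads with STAR and made the deposited counts per gene with featureCounts (GRCm38, GENCODE M10). The handling of strand and multimapping reads is not given in the sources used here. Totals were 120593979 to 171117305 counts per library. The labels name TRIzol for RNA extraction and the methods a column kit.

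Counts were fitted with edgeR 4.0.16 (filterByExpr, TMM, glmQLFit and glmQLFTest) in R 4.3.3, with 1 mean per genotype over all 7 libraries. Genes were called at a Benjamini-Hochberg adjusted p of 0.05 over 20019 genes and a fold of 1.2. No p is given for WT, which has 1 library, and an exact permutation test of 3 against 3 cannot go below 0.1. The scripts were tested on simulated data. Positions and lengths came from GENCODE M21 on GRCm38, and coding sequences were aligned with MAFFT 7.526. For *Tfap2a* alone among the members, M21 holds a later version of the gene entry than the one counted.

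The members and the gene lists were chosen with earlier results of these data known. The text names all members, the 4 most abundant and the 2 largest called changes each way in each of the 5 pathway lists, the 5 genes most like *Tfap2e* and 3 for the others, neighbours within 2 tested genes and overlapping genes. A gene that this rule names among the AP-2 partners is not reported here. *Ptf1a*, *Foxn4*, *Gad1*, *Lhx9*, *Meis2*, *Lhx1*, *Onecut1*, *Krt5*, *Krt14*, *Krt15* and *Grhl3* were named after their values were seen. So were *Trp63*, *Dsp*, *Krt8*, *Epcam*, *Perp*, *Cldn4* and *Grhl2*. Alternatives were DESeq2 1.42.0, other normalizations, filters, samples, exon lengths, pseudocounts and a replicate block, and each replicate was left out in turn.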

Additional observations from a re-analysis of the deposited data

How the results depend on the processing

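Each member kept its direction in each alternative that gave it a value. *Tfap2e* has no value with a minimum of 10 counts in every library. Its 1 to 9 counts in the WT and Het libraries limit the precision of its fold change. As a description, the members were past the limits in 9 of 13 alternatives for *Tfap2a*, 13 for *Tfap2b*, 11 for *Tfap2c* and 12 for *Tfap2d*, and in 9 of 12 for *Tfap2e*. Over all genes, 1445 were called, against 2070 by DESeq2 and 386 to 1673 with 1 replicate left out (386 without Het2, 496 without Het3, 612 without KO2). The leave-one-out range was 5 to 11 for amacrine genes, 0 to 1 for horizontal genes, 0 to 1 for AP-2 partners (1 without KO1) and 1 to 2 for AP-2 targets. Horizontal calls were 3 by DESeq2 and 0 with no filter, and AP-2 target calls were 4 by DESeq2. Without both Het1 and KO3, chosen after seeing the data, 1998 genes were called, 1035 of them lower in KO against 643, with 2 horizontal genes and 4 AP-2 targets. The cause of these changes was not tested. The *Tfap2b* share of the family was 50.8% in Het and 55.8% in KO with the longest transcript, and 69.5% and 72.4% with the longest coding sequence.

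Replicate numbers are shared between Het and KO, but deviations of same-numbered libraries correlated at -0.176 to 0.216 over 3 pairs, so the numbers were not taken as pairs. With the replicate block, which takes same-numbered libraries as pairs, 1268 genes were called, with 2 horizontal genes and 1 AP-2 target. *Th* and *Igfbp5* were no longer called (edgeR adjusted p = 0.0517 and 0.0523).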
